A study of Mus musculus with 6 samples.

Results

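The genes described here are 33 genes of glycolysis, the pentose phosphate pathway and the response to low oxygen, out of 24346 gene symbols measured in sorted mouse prostate luminal cells. They were chosen by name and function and the rule used no measured value, but the list was drawn up with earlier results of these data known. The list holds 2 glucose transporter genes, 10 genes of the steps from glucose to triose phosphate, 5 of the steps from triose phosphate to pyruvate, 4 of pyruvate and lactate handling, 2 lactate transporter genes, 4 pentose phosphate enzymes and 6 genes of the hypoxia response. Luminal cells form the inner, secretory layer of the gland epithelium. They were sorted from C57BL/6 mice aged 4 months in 2 groups, transgenic mice that express mouse Csf-1 from the rat probasin promoter (titled PB, called CSF1 here) and their wild-type littermates (WT). The probasin promoter is known to be active in the prostate epithelium. The comparison asks what changes in these cells when they are forced to express CSF1, the growth factor of macrophages. Each group had 3 libraries, whose titles carry the numbers 3, 5 and 8 in both groups. Whether these are separate animals is not stated in the labels, and p-values therefore cover only the spread among these 6 libraries, which may be technical. No source used here gives the markers of the sort.

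Glycolysis splits glucose to pyruvate in the cytosol, and lactate dehydrogenase can turn that pyruvate into lactate, which monocarboxylate transporters carry out of the cell. The pentose phosphate pathway branches off at glucose 6-phosphate and makes NADPH and ribose phosphate. When oxygen is low, prolyl hydroxylases of the EGLN family no longer mark the transcription factor HIF-1 alpha for destruction, and the factor then raises genes of glucose uptake, glycolysis and blood vessel growth, many of which it binds at the hypoxia response element. HIF-1 alpha protein is controlled mainly by this destruction, which RNA levels do not show. Prostate luminal cells are known for exporting citrate rather than oxidising it.

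The promoters of 3 of these genes are shown because the hypoxia genes moved unequally. Egln3 was among the members that rose most, but it was tested only because of its CSF1 values, which fixed its direction. Bnip3 was the only member that fell past the threshold. Ldha is a textbook HIF target that did not pass it in the main fit, though it did when libraries of the same number were paired. Each sequence runs from 250 bases before to 50 bases after a RefSeq start site (GRCm38.p6). Capitals mark the core letters of the hypoxia response element, searched as ACGTG and GCGTG on both strands, so that each CACGTG (the E-box of other factors) counts as 2 overlapping matches.
Egln3, chr12:54203825-54204124, minus strand: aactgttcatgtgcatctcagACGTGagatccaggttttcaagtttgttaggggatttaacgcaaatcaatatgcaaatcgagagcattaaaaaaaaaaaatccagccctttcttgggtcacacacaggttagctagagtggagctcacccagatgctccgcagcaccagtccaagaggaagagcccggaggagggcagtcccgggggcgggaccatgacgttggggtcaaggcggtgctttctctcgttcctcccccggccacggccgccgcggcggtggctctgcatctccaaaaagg
Bnip3, chr7:138909457-138909756, minus strand: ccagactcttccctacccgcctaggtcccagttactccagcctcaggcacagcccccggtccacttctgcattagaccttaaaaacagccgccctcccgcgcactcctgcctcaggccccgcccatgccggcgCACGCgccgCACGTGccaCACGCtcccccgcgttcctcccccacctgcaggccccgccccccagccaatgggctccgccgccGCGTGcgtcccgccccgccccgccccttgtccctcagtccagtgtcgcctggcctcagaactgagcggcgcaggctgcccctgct
Ldha, chr7:46845554-46845853, plus strand: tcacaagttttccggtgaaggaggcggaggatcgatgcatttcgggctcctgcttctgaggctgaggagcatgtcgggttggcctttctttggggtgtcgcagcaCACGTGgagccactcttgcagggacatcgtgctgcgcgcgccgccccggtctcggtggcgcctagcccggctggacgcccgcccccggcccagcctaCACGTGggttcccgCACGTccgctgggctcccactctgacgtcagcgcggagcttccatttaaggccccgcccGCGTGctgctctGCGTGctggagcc
The windows hold 1, 5 and 7 matches. Of the 33 members, 31 had a promoter in the table (Ndrg1 and Slc2a3 did not), and 29 of these (93.5%) held at least 1 match, against 46.7% of all 27025 RefSeq genes with a promoter and 68.8% of the 8272 tested genes found there. Among the members that rose, 12 of 12 held a match. The member that fell held one, and so did 15 of the 17 tested members that did not pass. The 2 members without a match were Gpi1 and Tpi1. A gene was counted if any of its promoters held a match. By promoter, 37 of 46 among the members (80.4%) held one, against 43.8% of all 32851 RefSeq promoters. CACGTG stood in 6 members (19.4%) and in 12.2% of the tested genes. Such a match is a description of letters and does not show that a factor binds there. Bases outside the windows were not searched.

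Csf1 itself gave 1.54, 2.25 and 3.98 FPKM in WT 3, 5 and 8 against 1082, 1326 and 1678 FPKM in CSF1 3, 5 and 8, where FPKM are fragments scaled to transcript length and library size. The CSF1 libraries were the deeper ones: read depth per unit of FPKM came to 4.17 to 5.01 in CSF1 and 2.72 to 3.50 in WT. Markers of other cells moved with the genotype. All 18 macrophage and monocyte markers rose, their summed level being 28.2 to 137 FPKM in WT and 919 to 3675 FPKM in CSF1, highest in CSF1 8. Fibroblast and smooth muscle markers (8 of 8 tested) went from 99.6 to 110 FPKM up to 476 to 745 FPKM, and basal cell markers (5 of 5 tested) from 40.3 to 61.3 FPKM up to 526 to 830 FPKM. The 10 luminal markers summed to 4931 to 6353 FPKM in WT and 5255 to 7030 FPKM in CSF1, with 3 higher and 1 lower. Of 5 tested genes on the list of luminal secretory markers none rose and 2 fell (median log2 change -1.08). These were Azgp1, from 1009 to 236 FPKM, and Nupr1, from 7520 to 2824 FPKM. Nupr1 encodes a nuclear protein and not a secreted product. Pbsn, Msmb and Tgm4 overlapped between groups and did not pass. Both tested lymphocyte markers and all 3 tested endothelial markers were higher, but each had a WT mean under 1 FPKM and entered the test only through CSF1, which fixed the direction. The same holds for 10 of the macrophage, 5 of the fibroblast and smooth muscle and 1 of the basal markers. None of the 5 tested red blood cell markers passed, nor did the 1 tested neutrophil marker. In bulk RNA, fewer cells of a type and less RNA per cell cannot be told apart, and the part of these markers in the results on the 33 genes was not tested.

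Of the 33 genes, 31 reached the mean of 1 FPKM needed for the test. In CSF1, 13 of them were higher and 1 was lower (limma, Benjamini-Hochberg adjusted p under 0.05 over 10951 genes), and 17 did not pass. Among all tested genes 24.9% were higher and 7.47% lower, so that the members stood at 41.9% and 3.23%, and 32.4% of all genes passed in either direction. Every CSF1 library lay above every WT library for 16 members, as for 34.7% of all genes, and below it for 1 member, as for 13.1% of all genes. The median log2 change of the members was 0.44 and that of all tested genes 0.17. Rescaling to the genes outside the 5 most abundant moved the median of all genes to 0.00, median-ratio scaling to -0.03 and quantile normalization to -0.16. The members' median lay 0.27 above that of all genes as deposited and 0.24, 0.24 and 0.41 above it under these 3 scalings. Both lactate transporters and 4 of 6 hypoxia genes rose, 5 of the 15 glycolysis genes did, and none of the 4 pentose phosphate enzymes passed. A lactate transporter gene, Slc16a3, and a hypoxia gene, Egln3, are in these counts although they reached the mean of 1 FPKM only through CSF1.

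**Figure D1:**
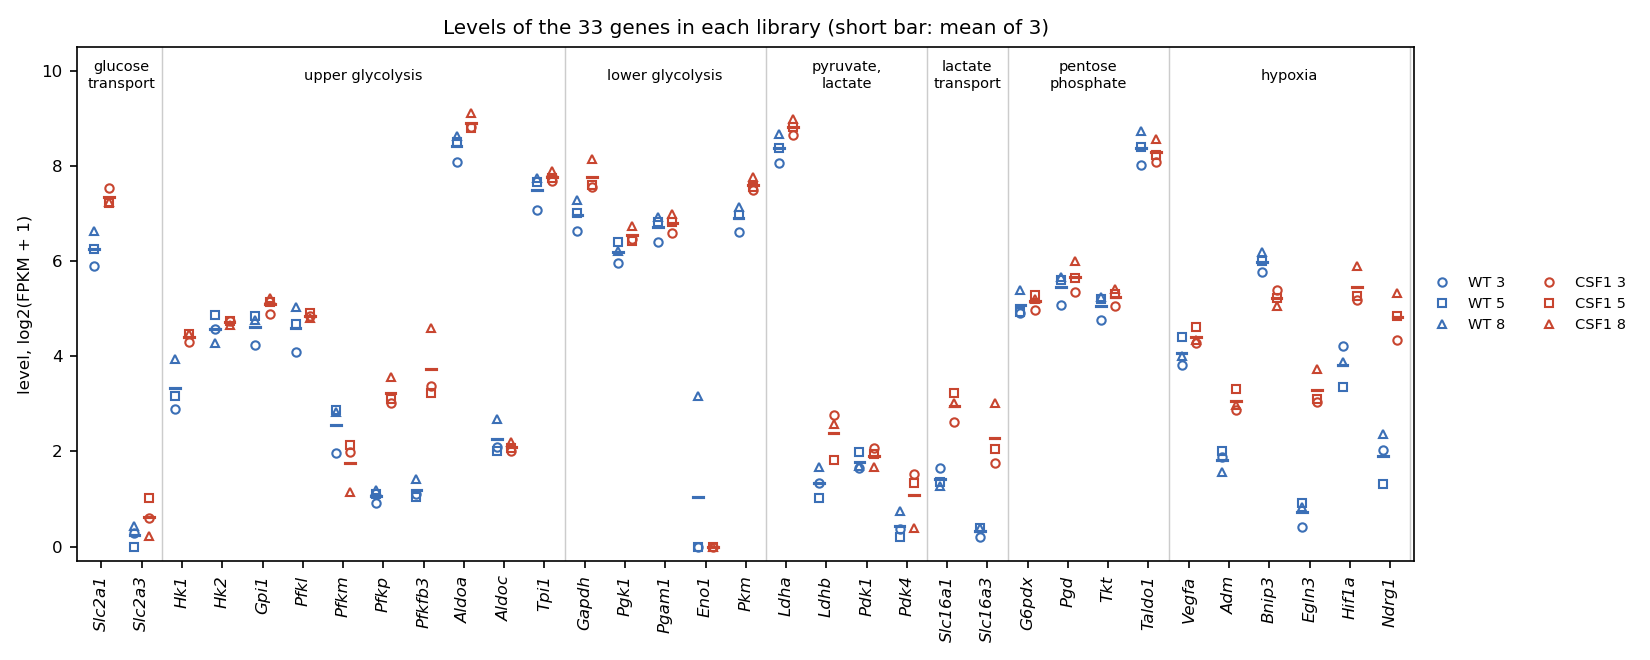
Level of each of the 33 genes in each library as log2(FPKM + 1), grouped by role, with WT in blue, CSF1 in red and a short bar at the mean of 3 libraries. Pfkp, Pfkfb3, Slc16a1, Slc16a3, Egln3, Hif1a and Ndrg1 separate widely, the 4 pentose phosphate genes overlap, and Eno1 is listed at 0 in 5 of 6 libraries.

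Slc2a1, which encodes the glucose transporter GLUT1, rose 2.08-fold. Its level was 58.6, 75.1 and 98.9 FPKM in WT 3, 5 and 8 against 185, 148 and 151 FPKM in CSF1 3, 5 and 8, the order used for all values that follow. The CSF1 libraries all lay above the WT libraries, and CSF1 3 was the highest. The log2 change was 1.07 ± 0.20 (SE, limma adjusted p = 0.0038). Slc2a3, which encodes the neuronal-type transporter GLUT3, gave 0.226, 0 and 0.344 FPKM in WT against 0.525, 1.03 and 0.171 FPKM in CSF1. These levels overlapped and were too low to be tested, so nearly all of the RNA of the pair came from Slc2a1.

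At the first step of glycolysis, the trapping of glucose by hexokinase, Hk1 rose and Hk2 did not pass. Hk1, the hexokinase of most resting tissues, gave 6.37, 8.00 and 14.3 FPKM in WT against 18.6, 21.0 and 21.0 FPKM in CSF1. It rose 2.12-fold (log2 change 1.08 ± 0.25 (SE), limma adjusted p = 0.0119), and WT 8 was the WT library closest to the CSF1 group. Without WT 5 the adjusted p was 0.0504, and the exons of Hk1 overlap those of Hk1os on the opposite strand, which these libraries do not separate. Hk2, the inducible hexokinase, gave 22.9, 28.03 and 18.4 FPKM in WT against 25.9, 25.6 and 24.3 FPKM in CSF1, where the groups overlapped (log2 change 0.14, 95% interval -0.24 to 0.53, limma adjusted p = 0.565). Hk1 made up 21.7%, 22.2% and 43.7% of the RNA of both genes in WT and 41.9%, 45.03% and 46.4% in CSF1, so WT 8 reached the CSF1 range. The log2 ratio of Hk2 to Hk1 was 0.93 lower in CSF1, from 1.24 ± 0.78 to 0.31 ± 0.13 (SD, n = 3 per group; difference -0.93, exact two-sided permutation p = 0.2), which did not pass.

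Gpi1, the isomerase that makes fructose 6-phosphate, gave 17.8, 27.8 and 26.0 FPKM in WT against 28.8, 34.4 and 36.5 FPKM in CSF1. All CSF1 values exceeded all WT values, but the change of 0.48 ± 0.19 on the log2 scale did not pass (limma adjusted p = 0.0895). With the library number as a block it did (adjusted p = 0.0337).

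At the phosphofructokinase step, which commits sugar to glycolysis, 1 of 3 genes rose. Pfkp, the platelet type, gave 0.892, 1.15 and 1.27 FPKM in WT against 7.15, 7.58 and 10.7 FPKM in CSF1, a 7.69-fold rise (log2 change 2.16 ± 0.20 (SE), limma adjusted p = 0.000131). Pfkl, the liver type, was the most abundant and stayed within overlapping ranges, with 16.1, 24.6 and 31.8 FPKM in WT and 27.8, 28.9 and 26.996 FPKM in CSF1 (log2 change 0.25, 95% interval -0.26 to 0.76, limma adjusted p = 0.441). Pfkm, the muscle type, gave 2.90, 6.29 and 6.06 FPKM in WT against 2.98, 3.37 and 1.22 FPKM in CSF1. Only WT 3 overlapped the CSF1 range of Pfkm, and its change of -0.79 ± 0.33 did not pass (limma adjusted p = 0.104), though it did under quantile normalization (0.0219), median-ratio scaling (0.0439) and without WT 3 (0.0407). Without CSF1 8 the change of Pfkm was -0.49 (adjusted p = 0.258). Pfkp thus went from 3.77% ± 0.636 to 21.8% ± 4.99 of the RNA of the 3 genes (SD, n = 3), while Pfkl went from 79.7% to 71.7% and Pfkm from 16.6% to 6.48%. The log2 ratio of Pfkp to Pfkl was -3.18, -3.58 and -3.85 in WT and -1.82, -1.80 and -1.25 in CSF1, a difference of 1.91. The groups did not overlap, and the exact two-sided permutation p of 0.1 is the smallest that 3 against 3 libraries can give. The exons of Pfkp overlap Pitrm1 and those of Pfkm overlap Senp1, both on the opposite strand.

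Pfkfb3 is not an enzyme of the chain itself but makes fructose bisphosphate of the kind that strongly activates phosphofructokinase, and is a known HIF target. It gave 1.16, 1.06 and 1.66 FPKM in WT against 9.31, 8.39 and 23.3 FPKM in CSF1. Its mean rose 10.6-fold (log2 change 2.54 ± 0.35 (SE), limma adjusted p = 0.000837), the largest rise among the members of glycolysis. CSF1 8 stood well above the other CSF1 libraries, and without it the log2 change was 2.11 ± 0.20 (adjusted p = 0.000190). The 8 listed transcripts of Pfkfb3 were not used alike, and 3 of them had values above 0. NM_133232 gave 0.359, 0.468 and 0.848 FPKM in WT against 7.96, 5.00 and 8.78 FPKM in CSF1. NM_001177752 gave 0.804, 0.588 and 0.812 FPKM in WT against 1.34, 2.47 and 10.8 FPKM in CSF1, so the height of CSF1 8 lay mainly in this transcript. Values of transcripts that share exons are estimates of the authors' quantification and were not tested.

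Aldoa, the main aldolase of glycolysis, gave 271, 363 and 395 FPKM in WT against 448, 441 and 557 FPKM in CSF1. The groups did not overlap, and the log2 change of 0.50 ± 0.17 just missed the threshold (limma adjusted p = 0.0580). It passed with the library number as a block (adjusted p = 0.0229) and without WT 8 (0.0468). Aldoc, the brain-type aldolase, gave 3.29, 3.05 and 5.45 FPKM in WT against 3.01, 3.21 and 3.59 FPKM in CSF1, overlapping (log2 change -0.18, limma adjusted p = 0.580). Tpi1, which interconverts the triose phosphates, gave 134, 200 and 213 FPKM in WT against 206, 214 and 235 FPKM in CSF1. WT 8 lay inside the CSF1 range of Tpi1, and the log2 change of 0.29 did not pass (95% interval -0.13 to 0.71, limma adjusted p = 0.272). Exons of Aldoa overlap Fam57b and those of Tpi1 overlap Spsb2 on the opposite strand.

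Among the genes from triose phosphate to pyruvate, Gapdh and Pkm rose. Gapdh, the first enzyme of this stretch, gave 98.8, 127.8 and 155 FPKM in WT against 187, 192 and 284 FPKM in CSF1, a 1.74-fold rise (log2 change 0.79 ± 0.21 (SE), limma adjusted p = 0.0228). CSF1 8 was the highest library for Gapdh, and the call was lost without it (adjusted p = 0.0520), without WT 3 (0.0649), without WT 5 (0.0660), under median-ratio scaling (0.0670) and with no filter on low genes (0.0625). Leaving out both libraries numbered 3 (0.0674) or both numbered 5 (0.0972) lost the call as well. The exons of Gapdh overlap those of Iffo1 on the opposite strand. Pgk1, which yields the first ATP, gave 61.5, 83.5 and 73.1 FPKM in WT against 86.7, 85.3 and 106 FPKM in CSF1, without overlap between groups but with a log2 change of 0.35 that did not pass (limma adjusted p = 0.124). Pgam1, the phosphoglycerate mutase, gave 83.6, 112 and 121 FPKM in WT against 95.7, 112 and 127 FPKM in CSF1. These ranges were almost the same (log2 change 0.08, 95% interval -0.32 to 0.48, limma adjusted p = 0.761).

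Enolase 1, the next enzyme, cannot be read from the symbol Eno1 alone. Eno1 was listed at 0 in every library but WT 8 (7.91 FPKM) and did not pass (limma adjusted p = 0.328). The near-identical gene Eno1b carried the signal, because its only transcript was listed both at its own place on another chromosome and at the place of Eno1 on chromosome 4 (150237324 to 150248873). On chromosome 4 the entries of both symbols together had 37.6, 60.1 and 66.5 FPKM in WT and 98.4, 99.1 and 123 FPKM in CSF1, and the entry at the other place had 69.3, 105 and 124 FPKM in WT and 175, 179 and 229 FPKM in CSF1. Both places were higher in all CSF1 libraries, but which copy the fragments came from is uncertain. Summed over both symbols, enolase 1 went from 154 ± 43.0 to 301 ± 44.0 FPKM (SD, n = 3; limma adjusted p = 0.00899), a sum that was chosen after the data were seen.

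Pkm, pyruvate kinase, gave 96.5, 125 and 141 FPKM in WT against 178, 188 and 216 FPKM in CSF1. It rose 1.61-fold with no overlap (log2 change 0.69 ± 0.16 (SE), limma adjusted p = 0.0126). Its transcripts M1 and M2 differ in a single exon of 167 bases, of which one or the other is spliced in. M2 is the form of many growing and epithelial cells and is regulated by an upstream sugar phosphate, and M1 is that of adult muscle and brain. The 2 exons are shown because they are what tells the forms apart, with capitals at the 64 bases that differ (61.7% identity, GRCm38, plus strand).
Pkm M1 exon, chr9:59675029-59675195: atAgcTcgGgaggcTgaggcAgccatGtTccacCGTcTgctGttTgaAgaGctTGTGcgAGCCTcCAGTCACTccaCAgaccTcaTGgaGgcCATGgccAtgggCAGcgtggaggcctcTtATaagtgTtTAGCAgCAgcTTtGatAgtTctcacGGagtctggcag
Pkm M2 exon, chr9:59675568-59675734: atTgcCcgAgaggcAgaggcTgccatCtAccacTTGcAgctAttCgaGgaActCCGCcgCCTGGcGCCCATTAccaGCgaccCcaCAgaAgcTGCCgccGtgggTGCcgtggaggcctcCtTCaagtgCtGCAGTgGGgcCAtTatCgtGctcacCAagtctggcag
M2 was the main form in every library and went from 100.7 ± 20.4 to 153 ± 19.7 FPKM (SD, n = 3). M1 gave 16.9, 22.8 and 20.6 FPKM in WT against 43.6, 36.3 and 42.6 FPKM in CSF1. Its share of Pkm was 17.5%, 18.2% and 14.6% in WT and 24.5%, 19.4% and 19.7% in CSF1. The share was higher in all 3 CSF1 libraries, with CSF1 3 standing apart from the other 2, and it was not tested.

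**Figure D2:**
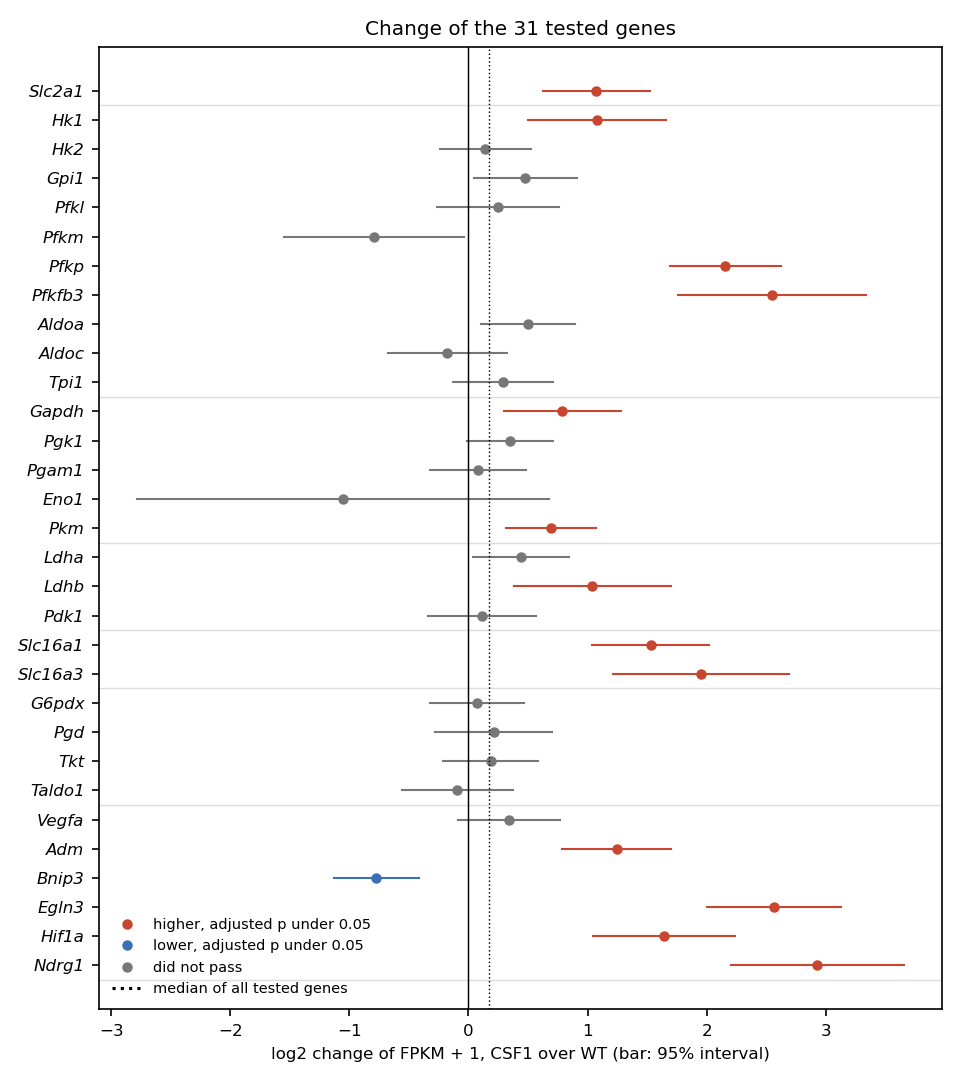
Log2 change of FPKM + 1 in CSF1 over WT for the 31 tested members, ordered by role with a grey line between roles, as a point with its 95% interval, red for higher, blue for lower and grey for genes that did not pass, with the median of all tested genes (0.17) dotted. The 13 rises are spread over every role but the pentose phosphate pathway, and Bnip3 is the 1 fall.

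At the fate of pyruvate, the abundant lactate dehydrogenase gene did not pass and the scarce one rose. Ldha, the subunit that favours lactate, gave 265, 334 and 410 FPKM in WT against 402, 451 and 503 FPKM in CSF1. WT 8 exceeded CSF1 3 by a little, and the log2 change of 0.44 ± 0.18 did not pass (limma adjusted p = 0.0912), though it did with the library number as a block (0.0246) and without WT 8 (0.0358). Ldhb, the subunit that favours pyruvate, gave 1.52, 1.02 and 2.19 FPKM in WT against 5.76, 2.53 and 4.95 FPKM in CSF1. It rose 2.79-fold without overlap (log2 change 1.04 ± 0.29 (SE), limma adjusted p = 0.0248), CSF1 5 being close to WT 8. The call for Ldhb did not survive leaving out WT 3 (adjusted p = 0.0635), WT 5 (0.0926), CSF1 3 (0.0821) or CSF1 8 (0.0624), and it was lost under quantile normalization (0.157) and with no filter on low genes (0.0714). Leaving out both libraries numbered 3 (0.161) or both numbered 8 (0.0563) lost it as well. Ldhb made up at most 1.41% of the RNA of the pair in any library, with 0.470% on average in WT and 0.982% in CSF1. The log2 ratio of Ldha to Ldhb differed by -0.60 (exact two-sided permutation p = 0.2), which did not pass, and by -0.33 without CSF1 3.

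Pyruvate dehydrogenase kinases hold pyruvate back from the mitochondria. Pdk1, a HIF target in many cells, gave 2.15, 2.98 and 2.24 FPKM in WT against 3.20, 2.83 and 2.20 FPKM in CSF1, overlapping (log2 change 0.11, 95% interval -0.34 to 0.57, limma adjusted p = 0.708). Pdk4, the kinase induced by fasting, gave 0.290, 0.150 and 0.670 FPKM in WT against 1.89, 1.53 and 0.311 FPKM in CSF1. CSF1 8 lay inside the WT range of Pdk4, the mean was under 1 FPKM and the gene was not tested. The log2 ratio of Pdk4 to Pdk1 differed by 0.54 (exact two-sided permutation p = 0.2), and by 0.32 without WT 5.

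Both lactate transporter genes rose. Slc16a1, which encodes MCT1, a carrier of lactate in either direction, gave 2.13, 1.56 and 1.41 FPKM in WT against 5.13, 8.398 and 7.12 FPKM in CSF1 (4.04-fold, log2 change 1.53 ± 0.22 (SE), limma adjusted p = 0.00101). Slc16a3 encodes MCT4, the exporter of glycolytic cells and a HIF target, and gave 0.144, 0.316 and 0.305 FPKM in WT against 2.40, 3.14 and 7.13 FPKM in CSF1. The WT libraries were close to the detection floor for Slc16a3, and it entered the test only through its CSF1 values, so that it had to be higher if it was tested at all. Its mean went from 0.255 to 4.22 FPKM, the log2 change being 1.95 ± 0.32 (SE; adjusted p = 0.00231 by limma), and without CSF1 8, the highest library, the change was 1.58 ± 0.22. The transcripts of Slc16a3 differed between groups as well. NM_001038654 held all of the WT signal, whereas NM_001038653 was listed at 0 in WT but reached 1.74, 2.73 and 7.13 FPKM in CSF1. The log2 ratio of Slc16a3 to Slc16a1 differed by 0.42 between groups (exact two-sided permutation p = 0.4), and this value depends on the constant of 1 FPKM that is added, turning to -0.04 with 5 FPKM. It also rests on single libraries, being 0.25 without WT 3, 0.68 without CSF1 5 and 0.08 without CSF1 8.

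The pentose phosphate pathway gave no call. G6pdx, the enzyme that commits glucose 6-phosphate to the pathway, gave 29.0, 29.6 and 41.1 FPKM in WT against 30.4, 38.2 and 35.7 FPKM in CSF1 (log2 change 0.08, 95% interval -0.32 to 0.47, limma adjusted p = 0.781). Pgd, the second NADPH-making enzyme, gave 32.99, 47.3 and 49.9 FPKM in WT against 39.5, 49.0 and 62.8 FPKM in CSF1 (0.21, interval -0.28 to 0.70, adjusted p = 0.496 by limma). The groups overlapped for both. Tkt, the transketolase of the non-oxidative branch, gave 26.0, 35.6 and 37.0 FPKM in WT against 32.1, 38.4 and 41.5 FPKM in CSF1 (0.19, interval -0.21 to 0.59, limma adjusted p = 0.458). Taldo1, the transaldolase of the same branch, was by far the most abundant, with 260, 335 and 425 FPKM in WT and 268, 301 and 379 FPKM in CSF1 (-0.09, interval -0.56 to 0.37, limma adjusted p = 0.768). None of the 4 intervals reached a log2 change of 1 in either direction. Library number 3 gave the lowest value of its group for all 4 genes in both groups. Exons of G6pdx overlap Ikbkg on the opposite strand, and those of Tkt overlap Mir3076 on the same strand.

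Summed, the glycolytic enzymes were higher in CSF1 and the pentose phosphate enzymes overlapped between groups. The 14 glycolytic enzymes from Hk1 to Pkm came to 816, 1112 and 1209 FPKM in WT and 1316, 1356 and 1649 FPKM in CSF1, or 1046 ± 205 and 1441 ± 182 FPKM (SD, n = 3), a 1.38-fold difference without overlap. The 4 pentose phosphate enzymes came to 348, 448 and 553 FPKM in WT and 370, 426 and 519 FPKM in CSF1, or 450 ± 102 and 438 ± 74.9 FPKM. The log2 ratio of the second sum to the first was -1.23, -1.31 and -1.13 in WT and -1.83, -1.67 and -1.67 in CSF1. It was lower in all CSF1 libraries by 0.50 on average (difference -0.50, exact two-sided permutation p = 0.1, the smallest possible), and being a ratio within a library it does not depend on library scaling. Abundant genes such as Aldoa, Tpi1 and Taldo1 carry most of these sums. The glycolytic sum, and with it the ratio, counts enolase 1 only through Eno1. With Eno1b added the glycolytic sum came to 1197 ± 244 FPKM in WT and 1742 ± 226 FPKM in CSF1 (SD, n = 3), a 1.45-fold difference.

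**Figure D3:**
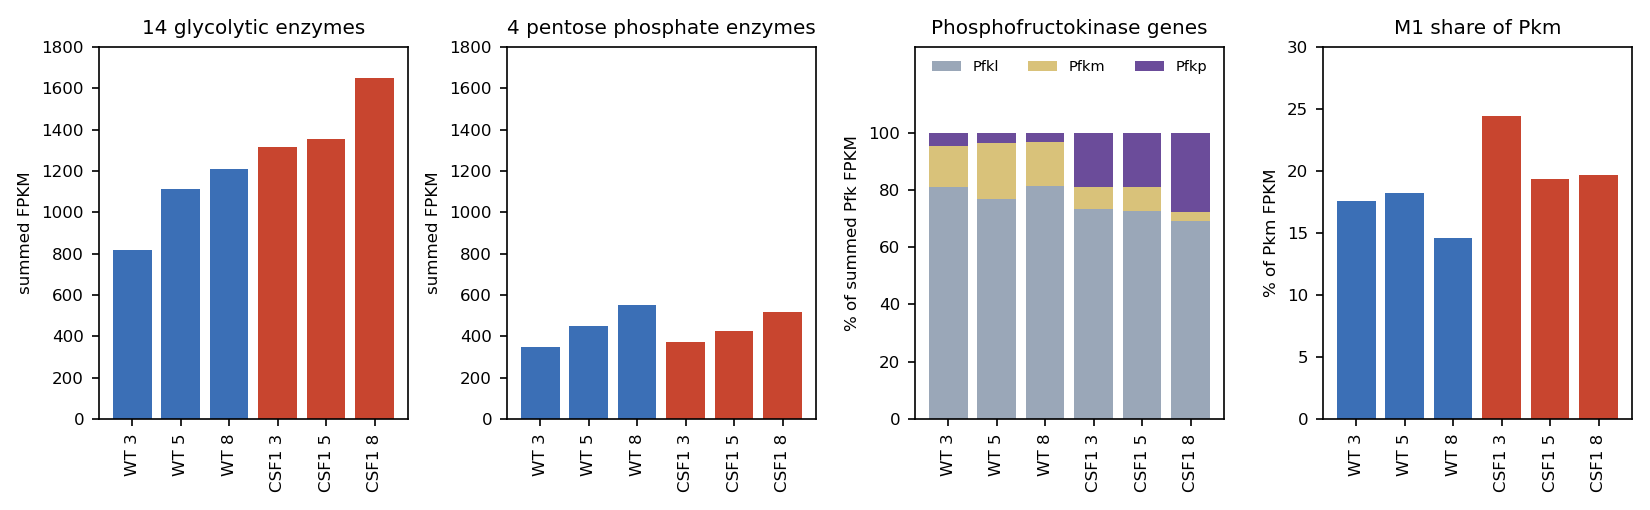
Summed FPKM of the 14 glycolytic enzymes and of the 4 pentose phosphate enzymes, the share of each phosphofructokinase gene in their summed FPKM, and the share of the M1 form in Pkm, each per library with WT in blue and CSF1 in red in the panels of 1 quantity. The glycolytic sum is higher in all 3 CSF1 libraries (1316 to 1649 against 816 to 1209 FPKM), the pentose phosphate sum overlaps, and Pfkp takes 18.8% to 27.6% of the phosphofructokinase RNA in CSF1 against 3.25% to 4.48% in WT.

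Of the 6 hypoxia genes 4 rose, 1 fell and 1 did not pass. Hif1a, which encodes the HIF-1 alpha subunit, gave 17.6, 9.26 and 13.7 FPKM in WT against 35.3, 37.8 and 58.8 FPKM in CSF1. All CSF1 libraries lay above the highest WT library, WT 3, and the mean rose 3.26-fold (log2 change 1.64 ± 0.26 (SE), limma adjusted p = 0.00188). Ndrg1, a stress-response gene widely used as a hypoxia marker, gave 3.09, 1.505 and 4.15 FPKM in WT against 19.3, 27.7 and 39.0 FPKM in CSF1, the largest log2 change of the 31 tested members (2.93 ± 0.32 (SE), 9.83-fold, limma adjusted p = 0.000261). This rank depends on the constant of 1 FPKM that is added. By ratio of means Slc16a3 (16.6-fold), Egln3 (13.4-fold) and Pfkfb3 (10.6-fold) rose more, from lower WT levels.

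Egln3, which encodes the prolyl hydroxylase PHD3, both acts on HIF-1 alpha and is induced by it. It gave 0.331, 0.893 and 0.791 FPKM in WT against 7.27, 7.596 and 12.2 FPKM in CSF1 (log2 change 2.57 ± 0.25 (SE), limma adjusted p = 0.000146). Like Slc16a3, Egln3 entered the test only through its CSF1 values, with a WT mean of 0.672 FPKM. Its promoter above held a single match. Adm, the gene of the vasodilator peptide adrenomedullin, gave 2.68, 3.01 and 1.95 FPKM in WT against 6.37, 8.998 and 6.86 FPKM in CSF1, again without overlap (2.91-fold, log2 change 1.24 ± 0.20 (SE), limma adjusted p = 0.00195). These 4 genes were higher in every CSF1 library, and for all but Adm the highest value was in CSF1 8.

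The other 2 hypoxia genes did not rise past the threshold. Vegfa, the gene of the vessel growth factor VEGF-A, gave 13.0, 20.2 and 15.02 FPKM in WT against 18.5, 23.5 and 19.3 FPKM in CSF1, where WT 5 overlapped (log2 change 0.34, 95% interval -0.09 to 0.77, limma adjusted p = 0.204). Bnip3, which encodes a mitochondrial protein of mitophagy and cell death and is a classic HIF-1 target, gave 53.7, 63.5 and 71.9 FPKM in WT against 40.8, 36.3 and 32.2 FPKM in CSF1. Every CSF1 library lay below every WT library, and the change was -0.77 ± 0.16 on the log2 scale (0.578-fold, limma adjusted p = 0.00587). The promoter of Bnip3 shown above holds 5 matches to the core. Bnip3 fell in the libraries in which Egln3 was higher, but the direction of Egln3 was fixed by its entry through CSF1. Both hold matches, as do 29 of the 31 members with a promoter, and the part of the matches in these changes was not tested. The call for Bnip3 held in every alternative but leaving out both libraries numbered 5 (adjusted p = 0.0806).

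**Figure D4:**
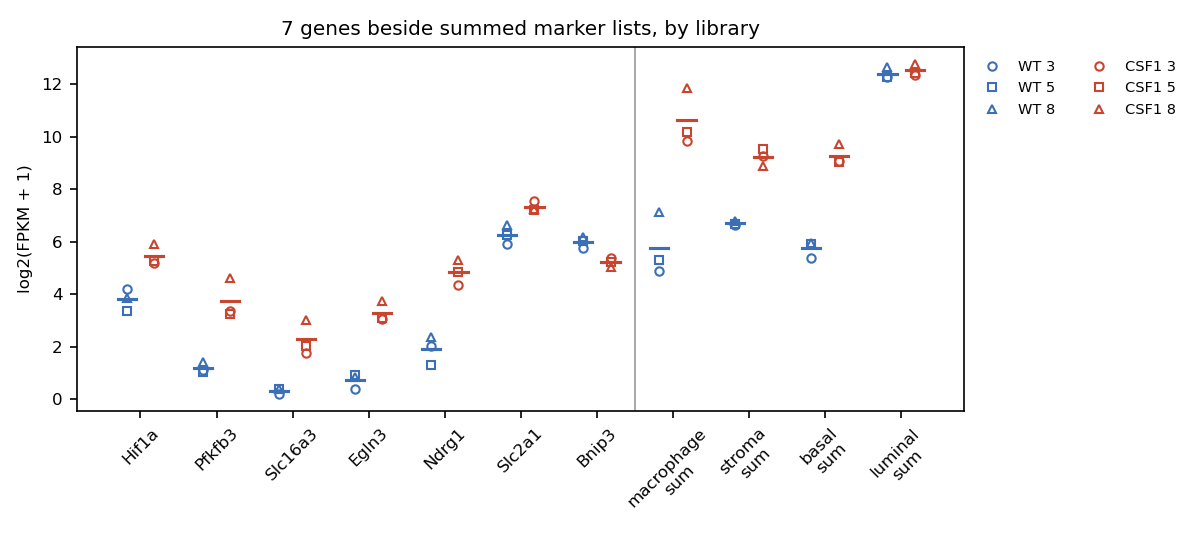
Levels of 7 members in each library, as log2(FPKM + 1), beside the summed levels of the macrophage, stroma (fibroblast and smooth muscle), basal and luminal markers on the same scale, with WT in blue, CSF1 in red and a bar at the mean of 3. Hif1a, Pfkfb3, Slc16a3, Egln3 and Ndrg1 are highest in CSF1 8, as the macrophage (3675 FPKM), basal (830 FPKM) and luminal (7030 FPKM) sums are. Slc2a1 is highest in CSF1 3 and the stroma sum in CSF1 5 (745 FPKM).

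CSF1 8 stood apart for markers of several cell types and had the highest level of Hif1a, Pfkp, Pfkfb3, Slc16a3, Egln3 and Ndrg1. Among the CSF1 libraries it was also the highest for Hk1, Gpi1, Aldoa, Aldoc, Tpi1, Gapdh, Pgk1, Pgam1, Pkm, Ldha, Pgd, Tkt and Taldo1. Most of that group did not pass the threshold. For the other members CSF1 8 was not the highest. Its marker sum was the highest for macrophages, for red blood cells (6712 FPKM against 723 and 695 FPKM in CSF1 3 and CSF1 5), for basal cells (830 against 537 and 526 FPKM), for neutrophils (31.1 against 1.40 and 2.53 FPKM) and for lymphocytes (24.1 against 7.40 and 7.17 FPKM). Its sum of the luminal secretory list was the lowest of all 6 libraries, at 6892 FPKM, of which Nupr1 gave 3518 FPKM. That list also counts Sbp, which was not tested and was listed at 31078 FPKM in CSF1 3 and at 0 in every other library. The luminal sum of CSF1 8 was the highest (7030 FPKM against 5255 and 5485 FPKM in CSF1 3 and CSF1 5). Its fibroblast and smooth muscle sum was the lowest of the CSF1 libraries (476 against 606 and 745 FPKM). Without this library the log2 changes were 1.41 for Hif1a, 1.99 for Pfkp, 2.11 for Pfkfb3, 1.58 for Slc16a3, 2.35 for Egln3 and 2.69 for Ndrg1, and each passed with an adjusted p of at most 0.00351. Slc16a3 and Egln3 still entered the test only through CSF1, so that their passing says little of direction. In all, 11 members were then higher and 1 was lower, Gapdh and Ldhb being lost. Of all genes 2383 were then higher and 647 lower, against 2731 and 818 with all libraries. In the remaining libraries, CSF1 3 and CSF1 5, the macrophage sum was still 919 and 1149 FPKM. Levels of the macrophage markers in WT 8, at 137 FPKM in sum, were above those of WT 3 and WT 5 (28.2 and 38.6 FPKM). Of the same 6 genes, Pfkp, Pfkfb3 and Ndrg1 were highest of the WT libraries in WT 8, and Hif1a, Slc16a3 and Egln3 in WT 8 lay between the other WT libraries. The part of other cell types in these rises was not tested.

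Among 113 other genes of the same and neighbouring pathways, taken from textbook lists, 76 were tested, 13 were higher (17.1%) and 4 lower (5.26%), with a median log2 change of 0.09. These shares lie below those of all tested genes (24.9% and 7.47%). None of the 4 tested hexose transporters beside the members passed, nor did any of the 4 tested genes of gluconeogenesis. Of the 7 other glycolytic enzymes 1 rose, which is Eno1b, described above.

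Around the pentose phosphate pathway, 2 of 9 tested genes rose (22.2%, against 24.9% of all tested genes). H6pd, which makes NADPH inside the endoplasmic reticulum from glucose 6-phosphate, went from 3.84 ± 0.684 to 19.7 ± 1.88 FPKM (SD, n = 3; log2 change 2.10 with a limma adjusted p = 5.76e-05), whereas its cytosolic counterpart G6pdx above did not pass. Prps2, which turns ribose phosphate into the precursor of nucleotides, went from 4.03 to 6.95 FPKM (0.67, limma adjusted p = 0.0233), a call lost in 10 of 18 alternatives, among them all 3 scalings and leaving out WT 5, WT 8, CSF1 3 or CSF1 5 (adjusted p up to 0.236). Of 11 tested genes of pyruvate entry to mitochondria, Pdp1 rose and Pdp2 fell. Both encode phosphatases that switch pyruvate dehydrogenase on, against the kinases Pdk1 and Pdk4. Pdp1 went from 2.17 to 12.1 FPKM (2.04, limma adjusted p = 0.000103) and Pdp2 from 3.92 to 1.76 FPKM (-0.84, limma adjusted p = 0.0273). Slc16a7, which encodes the monocarboxylate transporter MCT2, went from 16.9 to 8.92 FPKM (-0.89, limma adjusted p = 0.0471), opposite to Slc16a1 and Slc16a3. With the library number as a block Pdp2 (adjusted p = 0.0509) and Slc16a7 (0.0742) did not pass. The call of Pdp2 was lost in 8 of 17 alternatives, among them leaving out WT 5, WT 8 or CSF1 8, and that of Slc16a7 in 9 of 18, among them leaving out any WT library or CSF1 8. Without CSF1 8 the change of Slc16a7 was -0.56 (adjusted p = 0.0883) and that of Pdp2 was -0.65 (0.0619).

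Of the 6 tested HIF subunits and oxygen sensors only Epas1 rose, the gene of HIF-2 alpha, which is best known from endothelial cells (0.446 to 2.79 FPKM, log2 change 1.39, limma adjusted p = 0.0025). With a WT mean under 1 FPKM, Epas1 entered the test only through CSF1, as did Lox among the HIF targets, so both had to be higher if tested at all. Among 13 tested HIF targets outside the members, 3 rose (23.1%, against 24.9% of all tested genes) and none fell. Lox, which encodes the collagen-crosslinking lysyl oxidase and is typical of fibroblasts, went from 0.396 to 14.4 FPKM (3.41, limma adjusted p = 0.000212). Bhlhe40, a transcriptional repressor, gave 8.17, 6.68 and 8.93 FPKM in WT against 64.7, 63.8 and 64.4 FPKM in CSF1, a level nearly the same in all 3 CSF1 libraries (2.88 ± 0.14 (SE), limma adjusted p = 5.94e-06). Bhlhe40 shares exon bases with 0610040F04Rik on the opposite strand. Ero1l, an oxidase of the endoplasmic reticulum, went from 8.19 to 13.2 FPKM (0.62, limma adjusted p = 0.018), a call lost in 8 of 18 alternatives, among them all 3 scalings and leaving out WT 3, CSF1 3 or CSF1 5 (adjusted p up to 0.150). The other 10 did not pass.

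Of genes that draw on sugar phosphates, Gfpt2 had the largest change. It encodes an enzyme that commits fructose 6-phosphate to the hexosamine pathway, and it gave 4.50, 3.95 and 6.52 FPKM in WT against 75.2, 140 and 86.3 FPKM in CSF1 (log2 change 4.05 ± 0.25 (SE), limma adjusted p = 1.94e-05). Uap1, the last enzyme of that pathway, went from 28.3 to 46.4 FPKM (0.70, limma adjusted p = 0.00764; 0.0534 under quantile normalization). Khk, the fructose kinase, fell from 26.0 to 12.7 FPKM (-0.997, limma adjusted p = 0.00514), and Gnpnat1, a middle step of the hexosamine pathway that was named after its values were seen, fell from 37.2 to 25.5 FPKM (-0.52, limma adjusted p = 0.0248). The call of Gnpnat1 was lost in 8 of 18 alternatives, among them leaving out any single library but WT 5 (adjusted p up to 0.102). The glycogen phosphorylase gene Pygb went from 78.5 to 122 FPKM (0.64, limma adjusted p = 0.0303), the 1 rise among 6 tested glycogen genes. Its call was lost in 10 of 18 alternatives, among them all 3 scalings, no filter on low genes and leaving out WT 3, WT 5, CSF1 3 or CSF1 5 (adjusted p up to 0.216). Of 5 tested glucose-responsive regulators 2 rose (40%, against 24.9% of all tested genes) and 3 did not pass. The 2 were Txnip and Arrdc4, arrestin-like genes that respond to glucose phosphates and restrain glucose uptake. Txnip, whose exons overlap Gm15441 on the opposite strand, went from 78.2 to 124 FPKM (0.70, limma adjusted p = 0.0231). Arrdc4 went from 38.5 to 128.2 FPKM (1.71, limma adjusted p = 0.000643). The call of Txnip was lost in 8 of 18 alternatives, among them median-ratio scaling, no filter on low genes and leaving out any CSF1 library (adjusted p up to 0.0709). Slc2a1, whose product they restrain, rose in the same libraries.

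**Figure D5:**
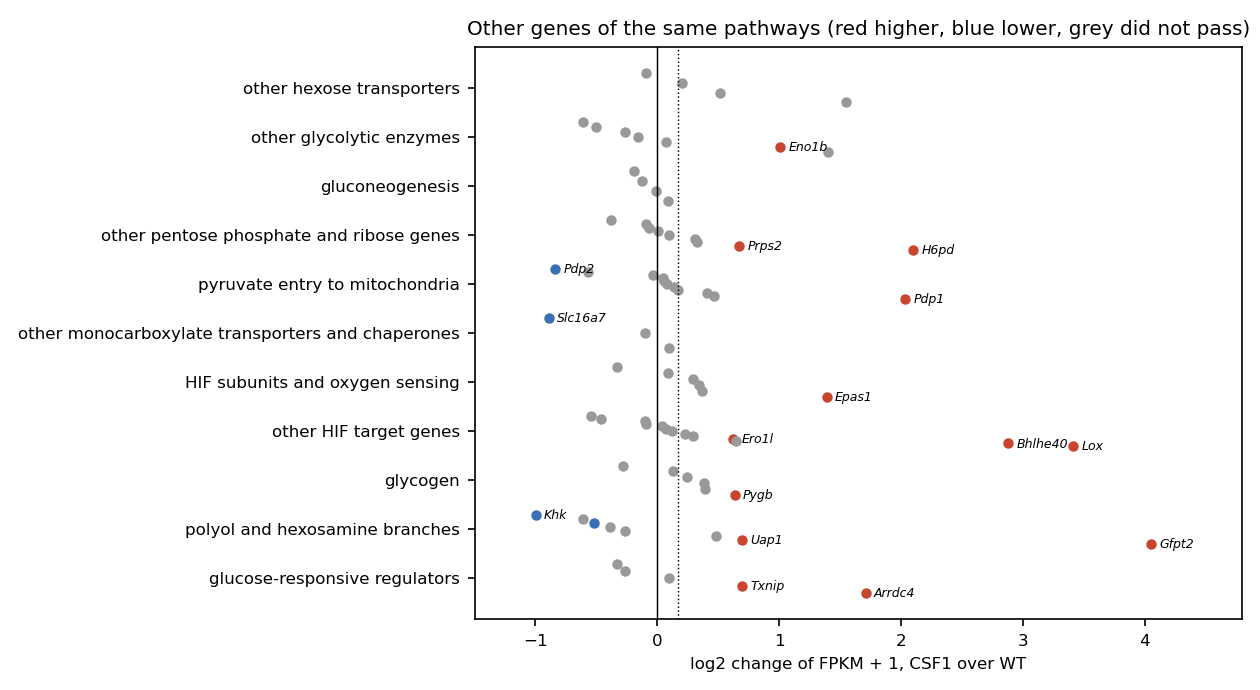
Log2 change of FPKM + 1 in CSF1 over WT for the 76 tested genes of the same and neighbouring pathways, 1 row per list, with rises in red, falls in blue, genes that did not pass in grey and the median of all tested genes (0.17) dotted. The named genes stand out on the right (Gfpt2, Lox, Bhlhe40, H6pd, Pdp1), and most of the other genes lie near 0.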

How the data were processed

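For each library the authors deposited a Cufflinks table with FPKM for 34535 RefSeq transcripts, per the file headers. Per the submitters' processing notes, bcl2fastq 1.8.3, TopHat and Cufflinks were used with mm10, with no version stated for the latter pair. The bounds of Cufflinks' interval are FPKM too, and the deposited coverage is a signal that equals FPKM times 1 constant per library, 2.72 to 3.50 in WT and 4.17 to 5.01 in CSF1. FPKM is not a count and the tables give no totals. Fragment numbers implied by the interval of single-transcript genes were whole, within 0.05, for 71.7% to 78.0% of low values (10% by chance). The kits named in the labels do not mark strand.

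FPKM was summed per symbol, 9 genes with a failed Cufflinks status were left out, and genes averaging 1 FPKM or more over the 6 libraries were tested. The test was limma 3.58.1 (R 4.3.3) with an intensity trend on log2(FPKM + 1), two-sided, without a block, in 1 fit over 10951 genes, of which 4667 had an unadjusted p under 0.05. Fold changes are ratios of mean FPKM, and log2 changes understate those of low genes. Ratios of 2 genes were tested by exact permutation of 3 against 3 libraries. Libraries with the same number deviated together from their group means (correlation across genes 0.257, 0.111 and 0.182 for numbers 3, 5 and 8, each above those of unequal numbers). The numbers may therefore pair the libraries, and they were used as a block in an alternative fit only. This pairing comes from the data and is not stated in the labels. Calls that changed with the number as a block stand beside their genes. All 33 members are named. Of the other pathway lists, the genes past the threshold with the 3 largest changes per list are named. Members and lists were chosen with earlier results of these data known. The fit was tested on simulated data. Spink3, Ly6g and Hbb-bt of the marker lists are not in the tables used here. Exon overlaps were read from the GENCODE and promoters from the RefSeq annotation of GRCm38, the build of mm10.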

Additional observations from a re-analysis of the deposited data

How the results depend on the processing

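Over 18 alternatives the call and direction of 9 of the 14 called members held wherever they were tested: Slc2a1, Pfkp, Pfkfb3, Slc16a1, Slc16a3, Adm, Egln3, Hif1a and Ndrg1. Hk1, Gapdh, Pkm, Ldhb and Bnip3 kept their direction and lost the call under at least 1, as given beside each gene or, for Pkm without both libraries numbered 5, with an adjusted p of 0.0975. Without both libraries numbered 3 or 5 the adjusted p of Hk1 was 0.0614 and 0.112. The replicate block raised the members higher from 13 to 16, while all genes higher went from 2731 to 2883 and all genes lower from 818 to 890. The block changed no call among the named genes other than those of Gpi1, Aldoa, Ldha, Pdp2 and Slc16a7. It called 5 other pathway genes lower in place of 4.

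Among members that did not pass, the sign turned in 27 cases for 9 genes. Under quantile normalization the log2 change was -0.102 for Hk2, -0.119 for Pgam1, -0.324 for Pdk1, -0.135 for G6pdx and -0.0229 for Tkt. Under median-ratio scaling it was -0.0809 for Hk2, -0.147 for Pgam1, -0.0549 for Pdk1, -0.150 for G6pdx, -0.0159 for Pgd and -0.0384 for Tkt. After rescaling to genes outside the top 5 it was -0.0463 for Hk2, -0.111 for Pgam1, -0.0261 for Pdk1, -0.115 for G6pdx and -0.0035 for Tkt. Leaving out 1 library at a time gave -0.0060 to 0.286 for Hk2, -0.0053 to 0.464 for Pfkl, -0.303 to 0.0324 for Aldoc, -0.0771 to 0.190 for Pgam1, -0.0119 to 0.234 for G6pdx and -0.271 to 0.0811 for Taldo1. Without both libraries numbered 3 it was -0.0032 for Pfkl and -0.0373 for Pdk1, and without both numbered 5 it was -0.0660 for G6pdx.

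Of all genes, 2731 were higher and 818 lower. A mean of at least 5 FPKM gave 1761 higher (fewer genes tested), quantile normalization 1694 higher and 2362 lower, median-ratio scaling 1762 lower, rescaling outside the 5 most abundant 1437 lower, leaving out both libraries numbered 5 1519 higher and 341 lower, and both numbered 8 485 lower. The share of rises among called genes was 77.0%, and 41.8%, 53.6% and 59.7% under the 3 scalings. Leaving out 1 library gave 2053 to 2489 higher and 478 to 850 lower. Members higher were 7 with a mean of at least 5 FPKM and 10 to 15 without 1 library. Members lower were 2 under quantile normalization and median-ratio scaling, 0 without both numbered 5, and 1 to 2 without 1 library. The members' median was 0.21 under median-ratio scaling and 0.28 to 0.57 without 1 library. Other pathway genes lower were 16 under quantile normalization, 11 under median-ratio scaling, 10 under rescaling, 1 without both numbered 3 or both numbered 5, 2 without both numbered 8, and 1 to 4 without 1 library.

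With 5 FPKM added, the ratio of Ldha to Ldhb differed by -0.0671, Slc16a3 to Slc16a1 by -0.0406 and Pfkp to Pfkl by 0.93. With 0.1 FPKM added, Slc16a3 to Slc16a1 differed by 1.55, Pfkp to Pfkl by 2.57 and Pdk4 to Pdk1 by 1.23. Without both libraries numbered 8 Pfkp to Pfkl differed by 1.57 and Pdk4 to Pdk1 by 0.97. The causes were not tested. Slc16a3, Egln3, Epas1 and Lox were under 1 FPKM on average in WT, so that their tests say little of direction.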
